A study of Mus musculus with 11 samples.

Results

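The genes described here are the nuclear-encoded subunits of the mitochondrial oxidative phosphorylation complexes, as measured by RNA-seq of mouse retina. They were chosen by gene symbol: Nduf genes of the a, b, c, s and v series (complex I, the NADH dehydrogenase), Sdha to Sdhd (complex II, succinate dehydrogenase), Uqcr genes (complex III, the cytochrome bc1 complex), Cox4 to Cox8 genes (complex IV, cytochrome c oxidase) and Atp5 genes (complex V, ATP synthase). Of 37991 genes in the count table, 94 symbols matched. After 6 pseudogenes and 6 genes with a mean under 1 CPM (counts scaled to a common library size) were left out, 82 subunit genes remained: 38 of complex I, 4 of complex II, 8 of complex III, 15 of complex IV and 17 of complex V. All 82 also passed the filter on low counts used for testing. The genes just inside the threshold were Cox7a1 (1.48 CPM), Ndufs6b (1.57), Cox6c2 (2.96) and Ndufa4l2 (4.58), and those just outside it were Cox6a2 (0.858), Cox8b (0.767), Ndufa11b (0.620), Ndufb4c (0.287), Cox7b2 (0.0174) and Cox8c, which had no count. The symbols are not a perfect guide to the complexes: the Ndufa4 protein is now regarded as a subunit of complex IV, and Atp5s encodes an ATP synthase coupling factor rather than a structural subunit. All counts and sums by complex below keep Ndufa4 in complex I and Atp5s in complex V.

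Complexes I to IV pass electrons from NADH and succinate to oxygen and, at complexes I, III and IV, pump protons out of the mitochondrial matrix. Complex V lets the protons back in and makes ATP. Most subunits are encoded in the nucleus and the remainder in mitochondrial DNA, and several subunits of complex IV exist as isoforms of different tissues. In the retina, mitochondria are packed densely in the inner segments of photoreceptors, whose ion pumps consume much ATP.

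The retinas came from 4 groups of mice, all taken at postnatal day 24 after daily intraperitoneal injections from day 9. The groups were rd10 mice (labelled B6.CXB1-Pde6brd10/Jrd10) given the LSD1 inhibitor GSK2879552 at 4.2 mg/kg, abbreviated GSK (n = 3), rd10 mice given saline (n = 3), wild-type C57Bl/6J mice given GSK (n = 3) and wild-type C57Bl/6J mice given saline (n = 2). The rd10 allele is a mutation of the rod phosphodiesterase gene Pde6b in the germ line, after which rods die in the weeks following birth, and LSD1, encoded by Kdm1a, is a histone demethylase. Each library was made from polyA RNA of the right-eye retina of 1 animal, and sex was not given in the sources used here.

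Libraries held 19657030 to 28053367 counts, of which the subunit genes took 0.711% to 0.860%. Pde6b stood at 991, 1381 and 1757 CPM in rd10 GSK, at 332, 333 and 422 CPM in rd10 saline, at 2214 to 2282 CPM in wild-type GSK and at 2231 and 2301 CPM in wild-type saline. Kdm1a, whose protein the compound inhibits, lay between 83.2 and 105 CPM in every library. Summed transcripts of 14 lens genes, which mark carry-over from dissection, reached 8593 CPM in rd10 GSK replicate 2 and 836 CPM in wild-type saline replicate 2, against 35.2 to 128 CPM elsewhere. Xist, which is expressed in females, was under 1 CPM in rd10 GSK replicates 1 and 3, rd10 saline replicate 2 and wild-type GSK replicate 2, and at least 728 CPM elsewhere (on the scale of total counts). Unless stated otherwise, levels are CPM on the TMM scale (trimmed mean of M values), which sets libraries on the bulk of genes rather than on their total, and ± after a level is the standard deviation (SD) between libraries. Every fold change is on the log2 scale, with ± its standard error. A gene rose or fell where edgeR's quasi-likelihood test gave an adjusted p under 0.05 over all 17099 genes tested.

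In wild-type saline retinas the subunit genes ranged widely in level. Per kilobase of exon, Atp5b, the catalytic beta subunit of ATP synthase, was highest at 661 ± 12.4 CPM (n = 2). Ndufa4 followed at 301 ± 13.4, Cox4i1 at 289 ± 3.77, Cox8a at 277 ± 14.6, Atp5a1, the alpha subunit of ATP synthase, at 259 ± 0.403 and Atp5g3, which encodes the rotating c ring, at 228 ± 2.07 CPM per kilobase. Ndufa4 did not differ from Cox4i1, nor Cox4i1 from Cox8a, by more than the sum of their SDs. At the low end stood Cox6b2 (4.74 ± 0.674), Ndufs6b (4.71 ± 1.12) and Cox7a1 (2.13 ± 0.476). Ndufs6b and Cox6c2 are near-identical copies of Ndufs6 and Cox6c, so the split of counts between each pair is uncertain.

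The summed level of the subunit transcripts in rd10 depended on how libraries were scaled. Summed over the 82 genes and set against a wild-type saline mean of 100%, the share of all counts was 95.5, 92.8 and 97.3% in rd10 GSK, 95.6, 111 and 91.8% in rd10 saline, 99.0, 97.5 and 97.0% in wild-type GSK, and 99.8 and 100.2% in wild-type saline. On the TMM scale the sums were 85.1, 86.9 and 91.7% in rd10 GSK, 82.8, 94.4 and 80.3% in rd10 saline, 97.6, 96.2 and 96.3% in wild-type GSK, and 101 and 99.3% in wild-type saline. With libraries scaled to inner retina genes they were 107.8, 102.9 and 105.0% in rd10 GSK, 81.9, 90.2 and 80.5% in rd10 saline, 103.3, 104.1 and 104.6% in wild-type GSK, and 99.1 and 100.9% in wild-type saline. That scale was set on listed bipolar, amacrine and ganglion cell genes, many of which fell with GSK in rd10 on the TMM scale. With GSK in wild type their median log2 fold changes were 0.08, -0.04 and -0.23 in that order. All 6 rd10 libraries lay below all 5 wild-type libraries on the TMM scale, and not on the scale of total counts, and on the inner retina scale only the 3 rd10 saline libraries did. The transcripts of 16 rod genes moved with the genotype: on the TMM scale they summed to 39.7, 62.6 and 76.7% of the wild-type saline mean in rd10 GSK, to 14.0, 14.2 and 16.9% in rd10 saline, and to 93.4 to 97.4% in wild-type GSK. Their part in the subunit levels was not tested, and in whole retinas fewer cells of a type and less RNA per cell cannot be told apart.

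By complex, the summed TMM levels of rd10 saline were lowest for complex I, at 82.7 ± 7.22% of wild-type saline (n = 3), and for complex V, at 84.8 ± 7.34%. Complex III stood at 87.2 ± 7.08%, complex II at 91.6 ± 6.57% and complex IV at 92.0 ± 9.47%. In each of the 3 libraries complex I was below complexes II, III and IV, and this order was not tested. The complex I sum includes Ndufa4 by its symbol, with means of 113 CPM in rd10 saline and 188 CPM in wild-type saline. The order of the complexes with Ndufa4 placed in complex IV was not computed. In rd10 GSK the range was narrower, with 87.2 ± 4.92% for complex I, 91.4 ± 2.18% for II, 90.4 ± 2.76% for III, 90.4 ± 3.16% for IV and 86.4 ± 2.84% for V. In wild-type GSK the 5 complexes stood between 95.4 and 100.1% of wild-type saline. On the inner retina scale the means were 103.4 to 109.5% in rd10 GSK and 81.1 to 90.2% in rd10 saline, with complex I lowest in rd10 saline there too.

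**Figure D1:**
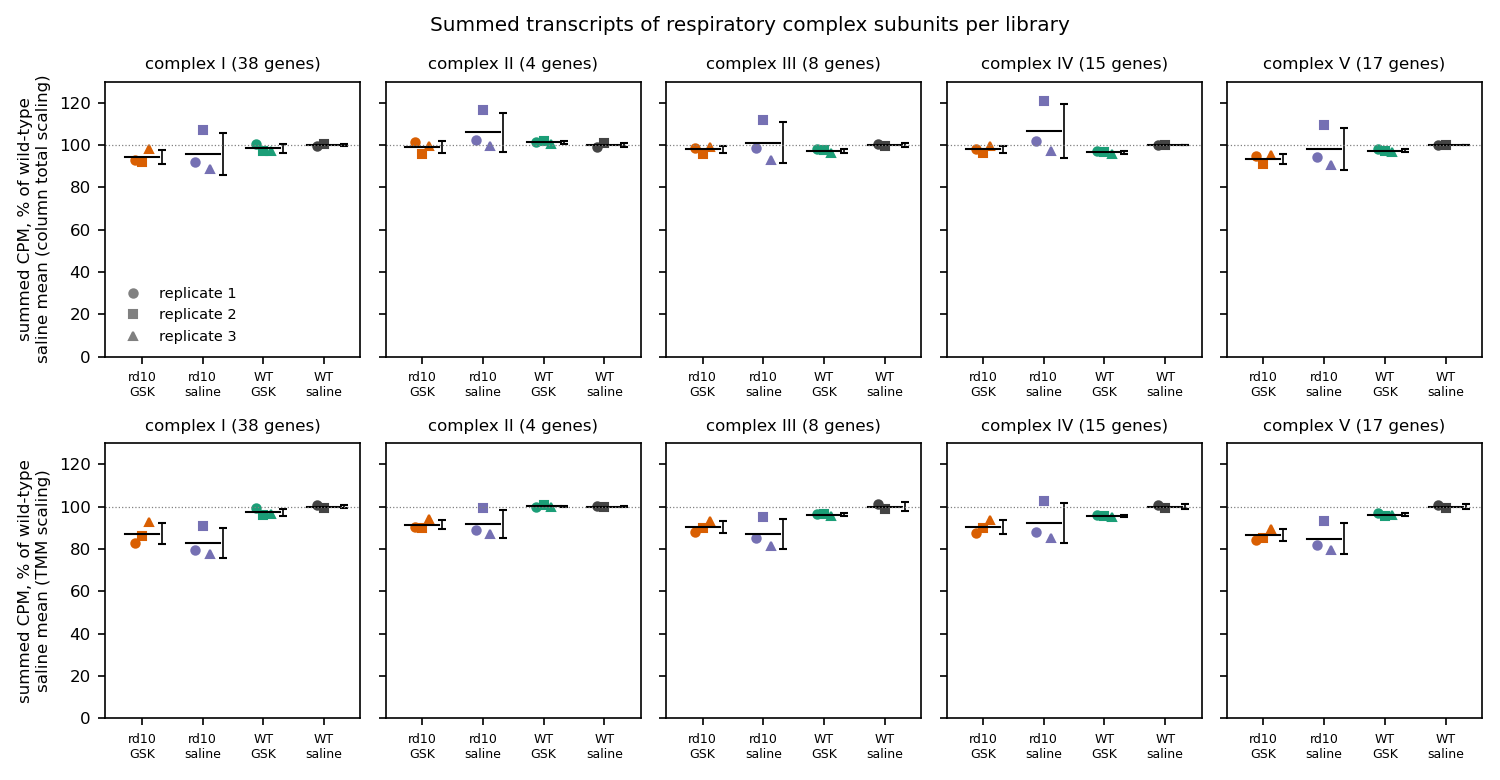
Summed CPM of the subunit genes of complexes I to V in each library, with the wild-type (WT) saline mean set to 100%. The top row uses CPM over all counts and the bottom row TMM-scaled CPM. Points are libraries, horizontal lines group means and error bars SD (n = 3 per group, 2 for WT saline); rd10 saline replicate 2 was above the other rd10 saline libraries for every complex, and complex I reached 82.7% of WT saline in rd10 saline on the TMM scale.

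Much of the spread in rd10 saline came from replicate 2. It was the highest of the 3 rd10 saline libraries for 77 of the 82 subunit genes, while replicate 1 was highest for 3 and replicate 3 for 2. Its median log2 ratio to the mean of replicates 1 and 3 was 0.23 over the 77 subunit genes with at least 10 CPM and -0.00 over 10593 other genes. In this library the ratio moved with transcript length. Among genes with under 1 kb of exon it had a median of 0.25 over 39 subunit genes and 0.21 over 354 other genes, and among genes with 4 kb or more it was 0.11 over 2 subunit genes and -0.12 over 4693 others. Subunit transcripts are short, with a median exon length of 927 bases against 3135 bases over all tested genes. The part of this length trend in the rd10 comparisons was not tested, and counts with the trend taken out are given beside the rd10 comparisons.

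**Figure D2:**
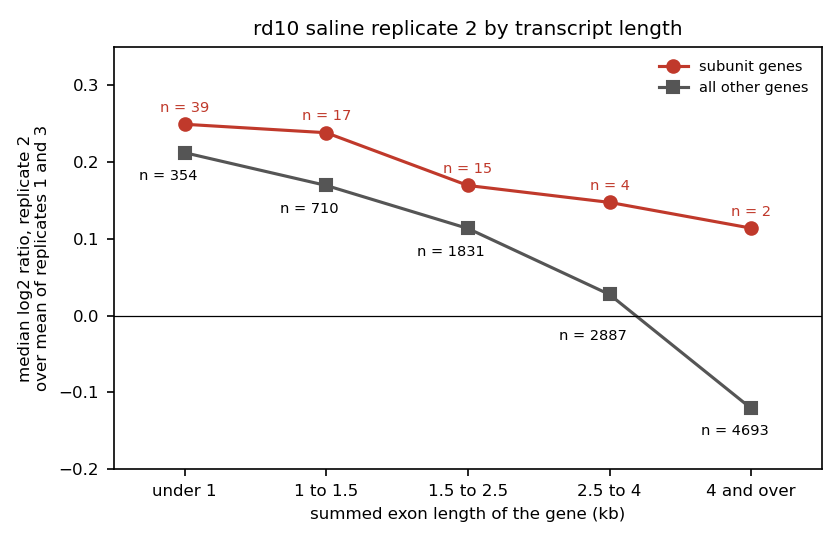
Median log2 ratio of rd10 saline replicate 2 over the mean of replicates 1 and 3 (vertical axis, TMM-scaled CPM with 0.5 added) by summed exon length of the gene in kilobases (horizontal axis), for subunit genes and for all other genes with a mean of at least 10 CPM. The numbers of genes stand beside the points; the ratio fell with length in both sets, and to -0.12 for the longest other genes.

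The promoters of 5 genes named below are shown for their sequence, each as the 300-base window around the annotated start (RefSeq, GRCm38.p6). Ndufa4, Ndufa10 and Uqcrc1 fell in rd10 saline and rose in rd10 GSK, Ndufs4 fell in rd10 GSK, and Cox6b2 rose there. The rises of Ndufa10 and Uqcrc1 were lost in 7 and 15 of 22 alternative settings in that order. Capitals mark matches, on either strand, to the motifs searched.
Ndufa4, chr6:11907401-11907700, minus strand: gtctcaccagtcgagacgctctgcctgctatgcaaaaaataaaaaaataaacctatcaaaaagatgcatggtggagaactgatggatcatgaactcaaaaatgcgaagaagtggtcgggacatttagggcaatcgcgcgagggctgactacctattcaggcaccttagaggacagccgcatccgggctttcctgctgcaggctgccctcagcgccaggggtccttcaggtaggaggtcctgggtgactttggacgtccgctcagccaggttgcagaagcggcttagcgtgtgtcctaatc
Ndufa10, chr1:92473709-92474008, minus strand: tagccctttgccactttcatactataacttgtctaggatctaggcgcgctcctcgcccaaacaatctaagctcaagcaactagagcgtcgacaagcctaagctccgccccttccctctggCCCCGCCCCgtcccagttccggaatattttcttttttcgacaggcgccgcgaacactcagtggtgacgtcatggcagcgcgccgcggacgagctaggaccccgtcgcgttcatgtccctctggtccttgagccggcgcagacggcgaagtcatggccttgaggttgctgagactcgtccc
Uqcrc1, chr9:108936398-108936697, plus strand: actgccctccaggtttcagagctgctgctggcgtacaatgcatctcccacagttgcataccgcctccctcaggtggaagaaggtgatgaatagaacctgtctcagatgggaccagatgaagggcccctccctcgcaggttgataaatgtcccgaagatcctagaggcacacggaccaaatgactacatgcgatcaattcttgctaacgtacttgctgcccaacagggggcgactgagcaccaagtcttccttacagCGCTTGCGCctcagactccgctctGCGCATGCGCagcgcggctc
Ndufs4, chr13:114388045-114388344, minus strand: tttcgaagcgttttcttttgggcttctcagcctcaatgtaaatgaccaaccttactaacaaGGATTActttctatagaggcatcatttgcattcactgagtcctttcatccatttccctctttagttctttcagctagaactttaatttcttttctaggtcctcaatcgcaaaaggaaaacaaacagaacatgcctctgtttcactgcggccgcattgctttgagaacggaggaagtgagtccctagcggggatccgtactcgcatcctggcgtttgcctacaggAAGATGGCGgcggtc
Cox6b2, chr7:4753045-4753344, minus strand: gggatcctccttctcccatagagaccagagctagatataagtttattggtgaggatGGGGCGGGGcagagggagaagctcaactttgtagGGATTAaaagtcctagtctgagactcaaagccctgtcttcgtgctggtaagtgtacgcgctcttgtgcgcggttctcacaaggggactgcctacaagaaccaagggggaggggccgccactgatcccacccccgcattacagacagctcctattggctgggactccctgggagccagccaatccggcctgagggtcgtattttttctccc
The motifs were GCGCANGCG for NRF-1, a regulator of respiratory genes, CCGGAAG for GABP and other ETS factors, TCAAGGTCA for estrogen-related receptors, AAGATGGCG for YY1, TAATCC for the photoreceptor factor CRX and GGGGCGGGG for Sp1. The Ndufa4 window held none of them. Ndufa10 held a match to Sp1, Uqcrc1 held a pair of NRF-1 matches just after the start, of which the second reads as overlapping matches on both strands, Ndufs4 held a match to CRX and a match to YY1, and Cox6b2 held a match to Sp1 and a match to CRX. Promoters were found for 64 of the 82 genes, some with more than 1, giving 69 windows. Of these, 30.4% held the NRF-1 motif against 6.25% of all 32851 promoters, 23.2% the GABP motif against 8.86%, 10.1% the YY1 motif against 1.40%, 2.90% the estrogen-related receptor motif against 0.423%, 14.5% the Sp1 motif against 11.4% and 8.70% the CRX motif against 7.06%. Of the 18 genes with a promoter that fell in rd10 saline, 6 held an NRF-1 match and 1 a CRX match. A match describes these letters and does not show that the factor binds.

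In rd10 retinas given saline, 24 of the 82 subunit genes fell and 2 rose relative to wild-type saline. Over all tested genes 19% fell and 21.5% rose in this comparison, so the subunit genes held more falls (29.3%) and fewer rises (2.44%) than that. Their median log2 fold change was -0.12, against 0.02 over all genes, and 68 of 82 values were below 0. Complex I had 14 falls and 1 rise (median -0.16), complex II 1 fall (-0.08), complex III 3 falls (-0.15), complex IV 2 falls and 1 rise (-0.08) and complex V 4 falls (-0.10). As shares of their genes, 36.8% fell in complex I, 25% in II, 37.5% in III, 13.3% in IV and 23.5% in V. The counts rest on the scaling: with libraries scaled by total counts alone 3 fell and 7 rose, with a median of 0.09 for the subunit genes against 0.23 for all genes, of which 9.11% fell and 39.2% rose on that scale. They rest on the libraries too, with 45 called without rd10 saline replicate 2, 10 without wild-type saline replicate 1, 13 without wild-type saline replicate 2, 17 without rd10 saline replicate 1 and 14 once both lens-bearing libraries were dropped. With the length trend taken out 34 fell and 2 rose. Markers of other cells moved in the same comparison: all 16 rod genes fell, 8 of 10 Müller glia genes rose (10263 to 11950 CPM summed in rd10 saline, 6583 and 6741 CPM in wild-type saline) and all 10 microglia genes rose (373 to 454 CPM summed in rd10 saline, 57.8 and 58.0 CPM in wild-type saline). None of these genes was at 0 in any library, and their part in the subunit changes was not tested.

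Within complex I both core and supernumerary subunit genes fell. Of the 7 nuclear genes that encode the core subunits, which carry the flavin and the iron-sulphur clusters and bind ubiquinone, 5 fell, with a median of -0.27; of the 31 supernumerary subunit genes 9 fell and 1 rose, with a median of -0.10. The difference between the 2 sets was not tested.

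Ndufa4 had 110, 127 and 103 CPM in rd10 saline and 194 and 182 CPM in wild-type saline, without overlap (-0.73 ± 0.10, adjusted p = 0.000153). Ndufa10, a supernumerary subunit of the membrane arm, had 84.0, 96.7 and 87.9 CPM in rd10 saline and 134 and 135 CPM in wild-type saline (-0.59 ± 0.08, adjusted p = 0.000217). Ndufa4 and Ndufa10 kept their call in each of 22 alternative settings, the scaling by total counts included. Ndufb8, of the membrane arm, fell by 0.43 ± 0.09 (43.9, 48.1 and 41.7 CPM in rd10 saline, 58.0 and 61.8 CPM in wild-type saline, adjusted p = 0.00223), and Ndufb11 fell by 0.39 ± 0.08. The NADH-binding subunit Ndufv1 fell by 0.37 ± 0.09, a call lost without wild-type saline replicate 1 and on total counts, and Ndufs1, the largest core subunit, fell by 0.26 ± 0.05. The Ndufb8 and Ndufs1 calls were each lost in 1 of 22 settings, the scaling by total counts. Ndufs7, Ndufb3, Ndufb9, Ndufs3, Ndufb2, Ndufs6 and Ndufb10 also fell, with values between -0.30 and -0.22; the Ndufs6 call was lost in 12 settings. The 1 rise, of Ndufa3 (0.24 ± 0.09, adjusted p = 0.0486), was lost in 17 of 22 alternative settings, and its end overlaps Tfpt.

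In the other complexes 10 genes fell, with values between -0.40 and -0.16. In complex II, Sdha, the flavin subunit that oxidises succinate, had 348, 375 and 345 CPM in rd10 saline and 402 and 394 CPM in wild-type saline (-0.16 ± 0.06, adjusted p = 0.0426), a call lost in 11 settings and reversed to 0.053 on total counts. Sdhb, its iron-sulphur partner, was not called (0.04 ± 0.10, adjusted p = 0.742). In complex III, the hinge subunit Uqcrh (-0.40 ± 0.10), the core protein Uqcrc1 (-0.32 ± 0.07) and Uqcrb (-0.25 ± 0.05) fell, while the Rieske iron-sulphur protein Uqcrfs1 had -0.04 and was not called (adjusted p = 0.629). Uqcrc1 had 169, 194 and 169 CPM in rd10 saline and 226 and 216 CPM in wild-type saline. Its call was lost on total counts, and that of Uqcrh in 3 settings, total counts among them. In complex IV, Cox6c fell to 86.1, 94.0 and 80.1 CPM in rd10 saline, against 116 and 110 CPM in wild-type saline (-0.38 ± 0.08, adjusted p = 0.00412), a call lost on total counts. Cox7a2l, which takes part in joining complexes into supercomplexes, fell by 0.33 ± 0.12, a call lost in 13 settings, limma-voom among them. Cox4i1, an early-assembling subunit, had 201, 242 and 195 CPM in rd10 saline and 223 and 219 CPM in wild-type saline; the groups overlapped and it was not called (-0.06 ± 0.08, adjusted p = 0.624).

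In complex V the falls were mainly in the F1 head, the part that makes ATP, where 3 of 5 genes fell; of the other 12 genes 1 fell. Atp5b had 950, 1054 and 923 CPM in rd10 saline and 1284 and 1250 CPM in wild-type saline (-0.38 ± 0.07, adjusted p = 0.000909), a call lost on total counts. The gamma subunit Atp5c1, which turns within the head, fell by 0.28 ± 0.06 and Atp5a1 by 0.22 ± 0.08, the Atp5a1 call being lost in 9 settings. The delta subunit gene Atp5d had 0.04 ± 0.09 and was not called (adjusted p = 0.786). Outside the head the call was Atp5k (-0.28 ± 0.09, adjusted p = 0.0229), which encodes a small membrane subunit.

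**Figure D3:**
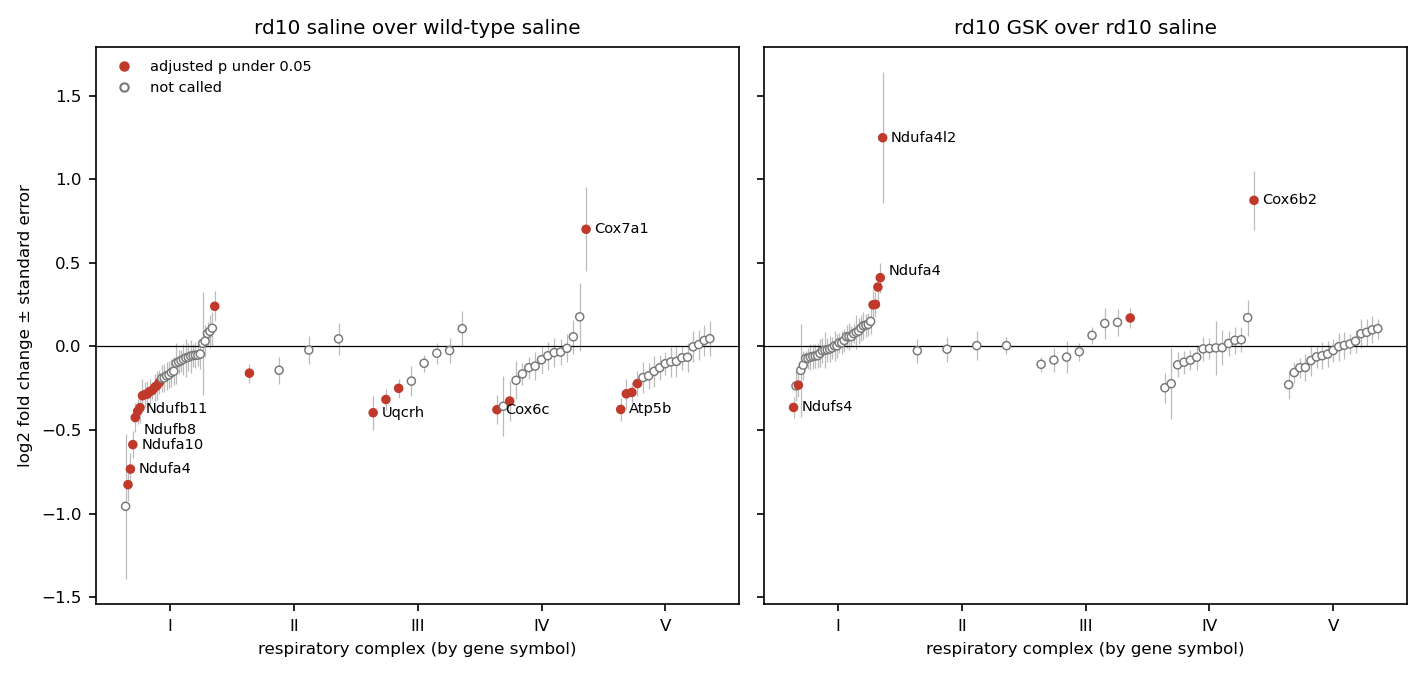
Log2 fold change of each of the 82 subunit genes with its standard error (vertical axis), ordered within complexes I to V (horizontal axis), for rd10 saline over wild-type saline and for rd10 GSK over rd10 saline. Filled points had an edgeR adjusted p under 0.05 and some of the larger ones are named; Ndufa4 lay at -0.73 on the left and at 0.41 on the right.

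In rd10 retinas given GSK, 7 of the 82 subunit genes rose and 2 fell relative to rd10 saline. Over all tested genes 17.6% rose and 15.2% fell, so both shares of the subunit genes (8.54% and 2.44%) were below the background, and their median log2 fold change was -0.01 against 0.01 over all genes. Complex I held 5 of the rises and both falls, complex III 1 rise and complex IV 1 rise, and no gene of complexes II and V was called. This comparison shares the rd10 saline libraries with the preceding one, so the 2 sets of values are not independent of each other. With libraries scaled to inner retina genes, 68 of 82 rose and none fell (median 0.28 for the subunit genes, 0.30 for all genes), where 47% of all genes rose and 2.93% fell. With scaling by total counts 4 rose and 9 fell (median -0.10 against -0.09), where 11.7% of all genes rose and 22.9% fell. With the length trend taken out 8 rose and 8 fell. With the Xist level as a covariate 5 rose and 5 fell, and without rd10 saline replicate 3 there were 3 rises and 5 falls. The count was 4 without rd10 saline replicate 1, without rd10 GSK replicate 2 or without both lens-bearing libraries, 5 without rd10 GSK replicate 3, 18 without rd10 saline replicate 2, and 3 where the rd10 groups were fitted alone. In the same comparison all 16 rod genes rose, all 10 microglia genes fell (225, 162 and 104 CPM summed in rd10 GSK, 373, 445 and 454 CPM in rd10 saline) and 7 of 10 Müller glia genes fell. Of the genes that set the inner retina scale, 8 of 10 bipolar and 9 of 10 ganglion cell genes fell on the TMM scale. Among 9 amacrine genes 3 fell and 1 rose. Their part in the subunit values was not tested.

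Ndufa4 had 135, 147 and 169 CPM in rd10 GSK and 110, 127 and 103 CPM in rd10 saline, without overlap (0.41 ± 0.09, adjusted p = 0.00447), and kept its call in all 22 settings. For Ndufa4 rd10 GSK replicate 1 was the lowest and replicate 3 the highest of the treated libraries, the order that the rod transcripts also had. That order was not particular to them. The summed amacrine, bipolar, ganglion cell, Müller glia, and pericyte and smooth muscle genes had it, as did the sum of all subunit genes. Microglia genes had the reverse order and cone genes had neither. Ndufa10 had 94.6, 107 and 117 CPM in rd10 GSK and 84.0, 96.7 and 87.9 CPM in rd10 saline, with overlap between the groups (0.25 ± 0.08, adjusted p = 0.0234, lost in 7 settings). Ndufs7, a core subunit with an iron-sulphur cluster, rose by 0.25 ± 0.09 (adjusted p = 0.0482). It had 47.8, 51.7 and 56.0 CPM in rd10 GSK and 41.3, 50.4 and 39.2 CPM in rd10 saline, with overlap. Uqcrc1 rose by 0.17 ± 0.06 (adjusted p = 0.0441), a call lost in 15 settings.

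The falls were of Ndufs4 and Ndufb2. Ndufs4 encodes a supernumerary subunit near the NADH-oxidising end of complex I, whose loss in mice causes a mitochondrial encephalopathy. It had 36.4, 34.6 and 38.5 CPM in rd10 GSK and 45.2, 49.2 and 46.6 CPM in rd10 saline (-0.37 ± 0.06, adjusted p = 0.000955). The groups did not overlap, and the call was lost under inner retina scaling (-0.08, adjusted p = 0.307). Ndufs4 was not called between rd10 saline and wild-type saline (0.08 ± 0.07, adjusted p = 0.400). Ndufb2 had 23.5, 21.6 and 24.1 CPM in rd10 GSK and 28.8, 26.7 and 25.9 CPM in rd10 saline (-0.23 ± 0.07, adjusted p = 0.0268), and was at 0.055 under inner retina scaling. Among genes at the centre of the other complexes, Atp5b (0.11 ± 0.06, adjusted p = 0.197), Cox4i1 (-0.11 ± 0.07, adjusted p = 0.282) and Sdha (0.00 ± 0.05, adjusted p = 0.959) were not called.

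**Figure D4:**
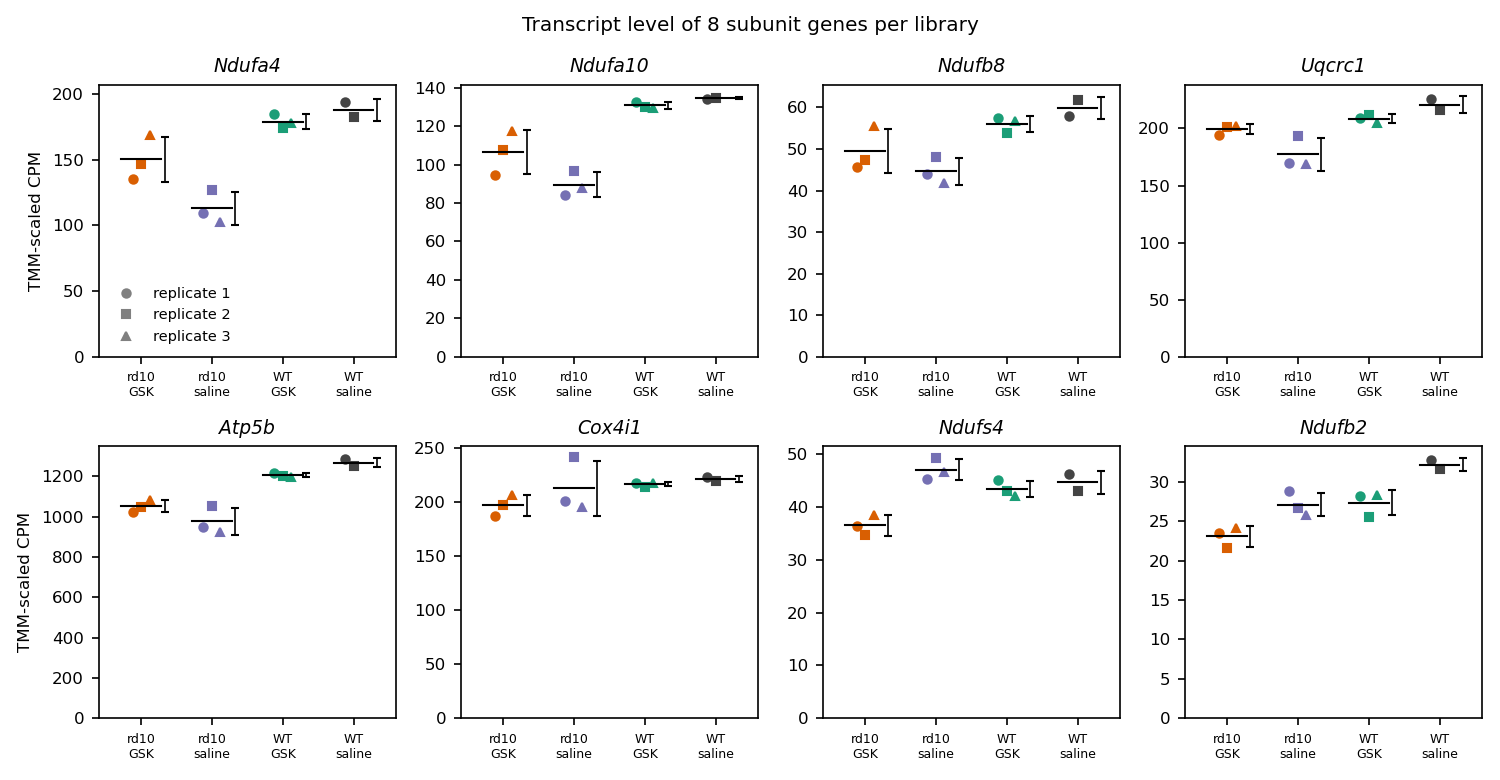
TMM-scaled CPM (vertical axes, from 0) of 8 subunit genes in each library of the 4 groups. Points are libraries, horizontal lines group means and error bars SD (n = 3 per group, 2 for WT saline); Ndufa4 and Ndufa10 stood highest in wild type, lowest in rd10 saline and between them in rd10 GSK by their means, while Ndufs4 was lowest in rd10 GSK.

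In wild-type retinas, none of the 82 genes was called between GSK and saline, where 0.532% of all tested genes were (0.444% higher and 0.0877% lower). At an unadjusted p under 0.05 edgeR gave 1 higher and 3 lower, limma-voom and DESeq2 called none, and fitting the compared groups alone called 3 (Atp5g1, Cox8a and Ndufb2, all lower). The median log2 fold change was -0.05 against -0.00 over all genes. Ndufa4 had 185, 174 and 178 CPM in wild-type GSK and 194 and 182 CPM in wild-type saline (-0.07 ± 0.10), and Ndufs4 45.1, 42.9 and 42.0 CPM in wild-type GSK and 46.2 and 43.0 CPM in wild-type saline (-0.04 ± 0.07). Values of the 82 genes ran from -0.23 to 0.58, the highest being that of Cox6b2.

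Between the genotypes under GSK, 16 of 82 subunit genes were lower in rd10 GSK than in wild-type GSK and none was higher, where 10.9% of all tested genes were lower and 15.4% higher. The 16 were 19.5% of the subunit genes, with 8 in complex I, 1 in II, 2 in III, 1 in IV and 4 in V, and the median over all 82 was -0.10 against 0.01 over all genes. At an unadjusted p under 0.05, 30 were lower and 1 was higher. On inner retina scaling 8 were higher and 1 lower (median 0.05 against 0.16 for all genes), where 27.9% of all genes were higher and 3.46% lower. On total counts 1 was higher and 2 lower (-0.00 against 0.10), where 22% of all genes were higher and 5.18% lower, and with the length trend taken out 32 were lower. The count was 3, 7 and 9 without wild-type GSK replicates 1, 2 and 3 in that order, 10, 4 and 26 without rd10 GSK replicates 1, 2 and 3, and 2 without the lens-bearing libraries. It was 33 without rd10 saline replicate 2, a library of neither group. Markers of other cells moved here too: 12 of 16 rod genes were lower in rd10 GSK and 9 of 10 microglia genes were higher (225, 162 and 104 CPM summed in rd10 GSK, 59.5 to 65.0 CPM in wild-type GSK). Of 10 bipolar genes 6 were lower, of 10 cone genes 5 were lower and 1 higher, and of 10 Müller glia genes 3 were higher and 1 lower. Their part in the subunit values was not tested.

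Atp5k (-0.31 ± 0.08), Ndufa10 (-0.30 ± 0.07), Ndufs1 (-0.27 ± 0.05), Cox6c (-0.26 ± 0.08) and Ndufb3 (-0.26 ± 0.07) were among the genes that were lower. The calls of Atp5k, Ndufb3 and Cox6c were lost in 5, 6 and 7 of 22 settings in that order. Ndufa10 had 94.6, 107 and 117 CPM in rd10 GSK and 133, 130.1 and 129 CPM in wild-type GSK, without overlap (adjusted p = 0.0145). That call was lost in 4 settings, under inner retina scaling (adjusted p = 0.0856), under scaling by column total (0.0527), without both lens-bearing libraries (0.0609) and without wild-type GSK replicate 1 (0.0546). Ndufs1 had 107, 105 and 113 CPM in rd10 GSK and 134, 129 and 128 CPM in wild-type GSK, also without overlap (adjusted p = 0.00240), a call lost under inner retina scaling (adjusted p = 0.107). Ndufa4 was not called (-0.25 ± 0.09, adjusted p = 0.0555). The saline and GSK comparisons of the genotypes share no library: 12 genes were lower in both, which is 50% of those lower in saline and 75% of those lower under GSK. Over all tested genes 1146 were lower in both, 35.3% of those lower in saline and 61.6% of those lower under GSK; whether the subunit genes differ from this was not tested. The 4 genes called under GSK alone were Ndufs4, Ndufb4, Uqcrc2, a core protein of complex III, and Atp5f1, the b subunit of the ATP synthase stalk.

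The effect of GSK differed between the genotypes for 2 of 82 subunit genes, 1 in each direction, where 12.5% of all tested genes passed this interaction test (7.49% higher and 4.98% lower). For Ndufa4 the interaction was 0.48 ± 0.13 (adjusted p = 0.0354), with a GSK effect of 0.41 in rd10 and -0.07 in wild type. For Ndufs4 it was -0.32 ± 0.09 (adjusted p = 0.0386), with -0.37 in rd10 and -0.04 in wild type. The Ndufa10 interaction was 0.29 ± 0.11 and missed the threshold (adjusted p = 0.114). Both calls depended on the settings: the Ndufa4 call was lost in 11 and the Ndufs4 call in 13 of 21, and the median over the 82 genes was 0.05 against 0.00 over all genes. No gene was called without any single wild-type library, without rd10 saline replicate 1 or 3, or without rd10 GSK replicate 2, whereas 12 were called without rd10 saline replicate 2 (all higher) and 5 without rd10 GSK replicate 1. On inner retina scaling 18 genes (of 82) were called, all higher, where the median of all genes moved to 0.18 and 17.6% of all genes were higher and 1.61% lower, and on total counts 1 was called, lower, where 4.85% of all genes were higher and 9.57% lower. With the length trend taken out 4 were higher and 1 lower.

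The isoforms known from other tissues were minor in every group, and a few moved with GSK. Cox6b2, the isoform of the complex IV subunit 6b that is best known from testis, had 7.78, 6.23 and 7.82 CPM in rd10 GSK and 3.32, 4.38 and 4.22 CPM in rd10 saline. The groups did not overlap (0.87 ± 0.18, adjusted p = 0.00297), and the call held in all 22 settings. In wild-type GSK it had 4.69, 6.50 and 4.58 CPM, above the 3.16 and 3.87 CPM of wild-type saline, but it was not called (0.58 ± 0.20, adjusted p = 0.352). The interaction was 0.29 ± 0.27 (adjusted p = 0.535), so the effect was not shown to differ between the genotypes. Per kilobase, Cox6b2 made up 8.03 ± 0.696% of Cox6b transcripts in rd10 GSK (n = 3), 4.29 ± 0.523% in rd10 saline, 5.68 ± 1.15% in wild-type GSK and 3.71 ± 0.462% in wild-type saline (n = 2). Cox6b1, the general isoform, had 69.3 ± 2.34, 74.1 ± 8.08, 72.8 ± 1.47 and 75.8 ± 1.00 CPM in the same order and was called in none of these comparisons.

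Cox6a2, the heart and skeletal muscle isoform of the complex IV subunit 6a, was just under the abundance threshold and is not among the 82. It had 34, 22 and 41 counts (1.31, 1.01 and 1.75 CPM) in rd10 GSK and 5, 1 and 7 counts (0.218, 0.0462 and 0.284 CPM) in rd10 saline. In wild-type GSK it had 42, 36 and 35 counts (1.70, 1.35 and 1.60 CPM), against 4 and 3 counts (0.191 and 0.132 CPM) in wild-type saline. Each GSK library was above each saline library, in both genotypes. Cox6a2 passed the filter on low counts only through the GSK libraries, so it entered the test because it was high there, and its fold changes and p-values are not given. The 6 skeletal muscle genes summed to 5.82, 6.87 and 43.2 CPM in rd10 GSK, 3.37 to 4.66 CPM in rd10 saline, 5.64 to 7.17 CPM in wild-type GSK and 6.28 and 6.84 CPM in wild-type saline, so each rd10 GSK library was above each rd10 saline library, while wild-type GSK overlapped wild-type saline. The part of muscle RNA in the Cox6a2 values was not tested. Cox6a2 lies within Itgad on the opposite strand, and Itgad had 0 to 0.0923 CPM in every library. Cox6a1, the general isoform, stood at 104 ± 2.39 CPM in rd10 GSK, 101 ± 13.6 in rd10 saline, 95.6 ± 3.72 in wild-type GSK and 104 ± 4.30 in wild-type saline, so that Cox6a2 remained at 1.09 ± 0.319% of Cox6a transcripts per kilobase in rd10 GSK and 1.35 ± 0.183% in wild-type GSK, against 0.161 ± 0.115% in rd10 saline and 0.130 ± 0.0286% in wild-type saline.

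Ndufa4l2, a relative of Ndufa4 known as a hypoxia-induced gene, had 3.04, 9.69 and 4.91 CPM in rd10 GSK and 2.49, 2.58 and 2.31 CPM in rd10 saline (1.25 ± 0.39, adjusted p = 0.0343). The groups did not overlap, but the highest value came from replicate 2, the library with lens transcripts, and the call was lost in 12 of 22 settings, the one without the lens-bearing libraries included. The 10 pericyte and smooth muscle genes summed to 605, 699.5 and 739 CPM in rd10 GSK, 424, 445 and 473 CPM in rd10 saline, 817 to 855 CPM in wild-type GSK and 932 and 976 CPM in wild-type saline; 4 of them rose and 1 fell with GSK in rd10, none was at 0, and their part in the Ndufa4l2 value was not tested. Its end overlaps Shmt2. Cox7a1, an isoform of heart and muscle, had 1.96, 2.03 and 1.58 CPM in rd10 saline and 0.957 and 1.32 CPM in wild-type saline (0.70 ± 0.25, adjusted p = 0.0429), a call lost in 13 settings. Cox4i2, an isoform known from lung and oxygen-sensing cells, was at 9.76 ± 1.16% of Cox4 transcripts per kilobase in rd10 GSK, 10.6 ± 0.371% in rd10 saline, 10.4 ± 0.509% in wild-type GSK and 9.88 ± 0.0892% in wild-type saline, and was not called in any comparison. The c-ring genes Atp5g1, Atp5g2 and Atp5g3 encode the same mature protein. Per kilobase, Atp5g3 supplied 78.6 ± 1.31% of their transcripts in rd10 GSK and 80.0 ± 0.876% in rd10 saline. It supplied 80.8 ± 0.539% in wild-type GSK and 80.2 ± 0.111% in wild-type saline. These shares rest on the exon lengths used, 4912 bases for Atp5g1 against 731 for Atp5g2 and 724 for Atp5g3. Without division by length, the mean over all libraries was 54.4, 31.4 and 155 CPM in that order (on the scale of total counts).

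**Figure D5:**
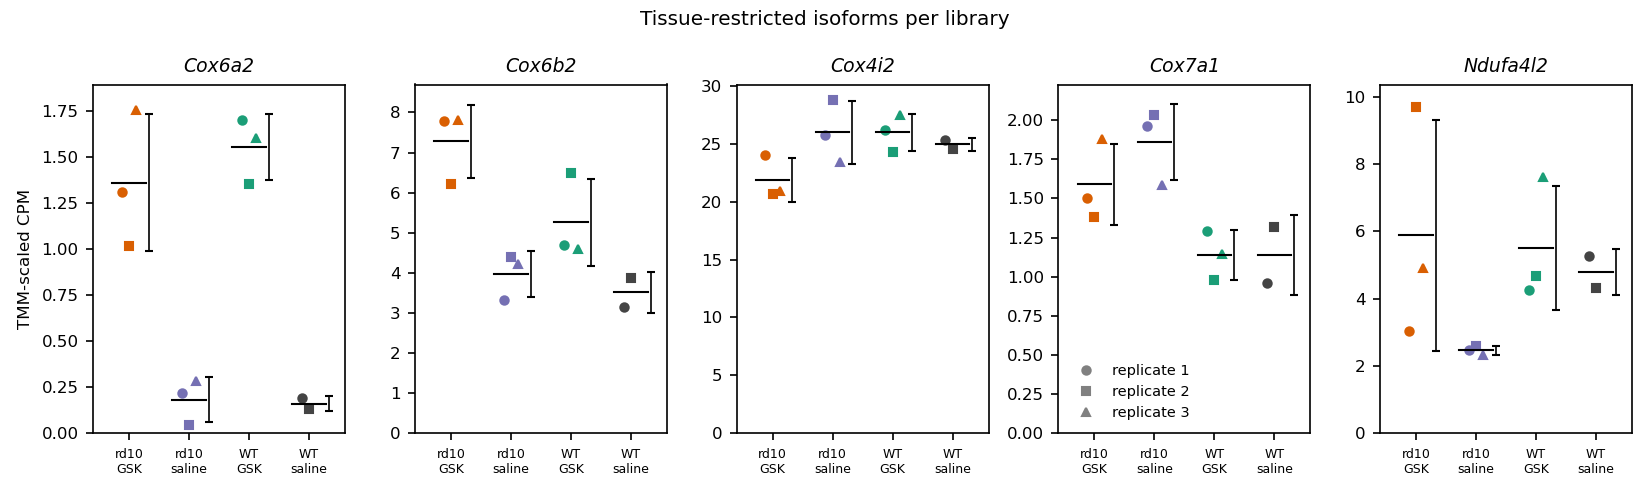
TMM-scaled CPM (vertical axes, from 0) of 5 isoforms known from other tissues, in each library of the 4 groups. Points are libraries, horizontal lines group means and error bars SD (n = 3 per group, 2 for WT saline); Cox6a2 lay at 1.01 to 1.75 CPM with GSK in both genotypes and at 0.284 CPM or below with saline.

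Other genes of the pathway were read from lists, and their counts stand against 19% of all tested genes that fell and 21.5% that rose in rd10 saline over wild-type saline, and 17.6% that rose and 15.2% that fell in rd10 GSK over rd10 saline. Of the 13 subunits encoded in mitochondrial DNA, 4 (30.8%) fell in rd10 saline relative to wild-type saline and none rose (median -0.24), among them mt-Cytb of complex III (4542 CPM in rd10 saline, 5627 in wild-type saline, -0.31) and mt-Co1 of complex IV (7601 CPM in rd10 saline, 8725 in wild-type saline, -0.20). Their sum was 84.8 ± 2.32% of wild-type saline in rd10 saline on the TMM scale, but 98.2 ± 3.85% on total counts (n = 3). The drop was not particular to rd10 saline. In rd10 GSK the sum was 78.6 ± 2.41% on the TMM scale and 85.2 ± 4.25% on total counts. In wild-type GSK it was 88.2 ± 5.95% and 89.3 ± 6.31% in that order, and wild-type saline had an SD of 7.04% on the TMM scale. On the inner retina scale the means were 94.2% in rd10 GSK, 83.3% in rd10 saline and 94.9% in wild-type GSK. In rd10 GSK over rd10 saline 1 fell, mt-Nd2 (-0.26, adjusted p = 0.0230), and in wild-type GSK over wild-type saline none was called. A set of 7 mitochondrial genes, mt-Co2 and mt-Co3 among them, had group means of at most 41.9 CPM, while the other 6 had 1568 CPM or more. Near-identical nuclear copies exist for these genes, so their counts are uncertain.

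Of 46 assembly factors, which build the complexes without being part of them, 11 (23.9%) fell in rd10 saline and none rose, a share of falls near the 19% of all genes. They were 5 of 15 for complex I, 2 of 4 for complex II, 1 of 6 for complex III, 3 of 18 for complex IV and none of 3 for complex V. Uqcc3, needed for complex III, had group means of 49.2 CPM in rd10 GSK, 24.5 in rd10 saline, 53.0 in wild-type GSK and 52.4 in wild-type saline, with -1.10 between the saline groups (adjusted p = 3.27e-06) and 1.01 between the rd10 groups (adjusted p = 5.71e-06). Coa7, needed for complex IV, had 27.4 CPM in rd10 GSK, 18.5 in rd10 saline, 27.8 in wild-type GSK and 28.4 in wild-type saline (-0.62 and 0.56 in the same comparisons). In rd10 GSK over rd10 saline 8 of the 46 (17.4%) rose, near the 17.6% of all genes, and 1 fell.

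Of 13 tricarboxylic acid cycle genes 6 (46.2%) fell and 1 rose in rd10 saline (median -0.11). The rise was that of Suclg2, the GTP-forming succinyl-CoA ligase subunit (12.5 CPM in rd10 saline, 3.97 CPM in wild-type saline, 1.65), and Dld (-0.36) and Mdh2 (-0.30) were among the falls. Of 17 genes of mitochondrial structure and transport 4 (23.5%) fell and 1 rose in rd10 saline, and 6 (35.3%) rose and 2 fell in rd10 GSK over rd10 saline. Slc25a5, an ADP/ATP carrier, had 187 CPM in rd10 GSK, 151 in rd10 saline, 228 in wild-type GSK and 257 in wild-type saline (-0.77 between the saline groups and 0.30 between the rd10 groups).

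Of 12 regulators of respiratory genes 6 (50%) fell in rd10 saline and none rose, against 19% and 21.5% of all genes, and 4 (33.3%) rose in rd10 GSK over rd10 saline and none fell, against 17.6% and 15.2%. Esrrb, an estrogen-related receptor that rods express, had 284, 428 and 556 CPM in rd10 GSK, 96.1, 77.1 and 106 CPM in rd10 saline, 648, 650.4 and 663 CPM in wild-type GSK and 627 and 644 CPM in wild-type saline. Its log2 fold change was -2.77 ± 0.24 between the saline groups (adjusted p = 3.58e-05) and 2.18 ± 0.22 between the rd10 groups (adjusted p = 0.000153). Ppargc1b, a coactivator of these receptors, had group means of 48.8, 23.2, 116 and 109 CPM in rd10 GSK, rd10 saline, wild-type GSK and wild-type saline (-2.23 and 1.07), and Nrf1 had 38.3, 28.4, 46.4 and 45.9 CPM in that order (-0.69 and 0.43). Ppargc1a, the related coactivator, fell in rd10 saline (-0.81 ± 0.14, adjusted p = 0.00141) and was not called between the rd10 groups (0.29 ± 0.13, adjusted p = 0.114).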

How the data were processed

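The authors deposited 1 table of raw read counts per gene for 11 libraries. Per the submitters' processing notes, the tools were bcl2fastq, HISAT2 2.1.0, HTSeq and edgeR, and the builds NCBIM37 and mm9; how HTSeq treated strand, and with which annotation, is not given in the sources used here. Symbols (for 32919 of 37991 identifiers; the rest held 0.627% of counts) and exon lengths came from GENCODE M21, and promoter windows from RefSeq GRCm38.p6.

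Genes were filtered with filterByExpr (minimum count 10, total 15), which left 17099, and fitted in edgeR 4.0.16 (R 4.3.3) with TMM scaling, 1 coefficient per group over all 11 libraries and robust quasi-likelihood F-tests. Benjamini-Hochberg adjustment ran over all tested genes, and the common biological coefficient of variation was 0.129. Whether libraries numbered alike in different groups are paired was not settled by their deviations. No pair of libraries agreed within counting noise. Alternatives used other scalings (DESeq2 size factors, inner retina genes, column totals), no filter, DESeq2 1.42.0, limma-voom (limma 3.58.1), Xist or replicate terms, only the compared groups, and fits without single libraries or without both lens-bearing libraries. Scaling by column totals and taking the length trend out within groups were chosen after seeing the data.

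The subunit genes and lists were chosen with earlier results of these data known. Genes named with values were core subunits, subunits with tissue isoforms, the 5 largest called changes each way in each comparison, genes beside the abundance threshold and genes with a called interaction. Genes named outside this rule, such as Ndufb11, Cox6c2 and the list genes, were chosen after their values were seen. Values of 1 gene that enters the counts and sums are not reported here.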

Additional observations from a re-analysis of the deposited data

Results flagged for a closer look

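The effect of GSK differed between the genotypes for 2 subunit genes, by edgeR's test of the interaction itself. Ndufa4 had an interaction of 0.48 on the log2 scale (0.482429): it had 135, 147 and 169 CPM in rd10 GSK, 110, 127 and 103 CPM in rd10 saline, 185, 174 and 178 CPM in wild-type GSK and 194 and 182 CPM in wild-type saline. Ndufs4 had an interaction of -0.32 (-0.324389): it had 36.4, 34.6 and 38.5 CPM in rd10 GSK, 45.2, 49.2 and 46.6 CPM in rd10 saline, 45.1, 42.9 and 42.0 CPM in wild-type GSK and 46.2 and 43.0 CPM in wild-type saline. Neither call held throughout: that of Ndufa4 was lost in 11 and that of Ndufs4 in 13 of 21 settings, including the replicate block and the omission of each single wild-type library. No group held enough libraries to test a single library as an outlier.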

How the results depend on the processing

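Of 34 called values of named subunit genes, 6 kept their call in every alternative, among them Ndufa4 and Ndufa10 in rd10 saline over wild-type saline and Ndufa4 and Cox6b2 in rd10 GSK over rd10 saline. Reversed values were Ndufb2 in rd10 GSK over rd10 saline under inner retina scaling (0.055) and Sdha in rd10 saline over wild-type saline on column totals (0.053). The causes of the changes below were not tested. In rd10 saline over wild-type saline, 26 genes were called, with 14 without the lens-bearing libraries, 10 on column totals and 10 to 45 without single libraries. In rd10 GSK over rd10 saline, 9 were called, with 68 under inner retina scaling, 16 with the length trend taken out, 4 without the lens-bearing libraries, 3 with the compared groups alone and 4 to 18 without single libraries. By direction, the 7 rises and 2 falls of that comparison became 5 and 5 with the Xist level as a covariate. They became 3 and 5 without rd10 saline replicate 3. In wild-type GSK over wild-type saline the count of 0 became 3 with the compared groups alone and stayed 0 to 0 without single libraries. In rd10 GSK over wild-type GSK, 16 were called, with 9 under inner retina scaling, 32 with the length trend taken out, 3 on column totals, 2 without the lens-bearing libraries and 3 to 33 without single libraries. For the interaction 2 were called, with 18 under inner retina scaling, 1 with no filter, 1 on column totals, 4 by DESeq2, 5 with the length trend taken out, 0 without the lens-bearing libraries and 0 to 12 without single libraries. The summed level on column totals, with wild-type saline at 100%, was 95.2, 99.5 and 97.8% for rd10 GSK, rd10 saline and wild-type GSK, but 87.9, 85.8 and 96.7% on the TMM scale and 105, 84.2 and 104% under inner retina scaling.

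Same-numbered libraries of different groups had deviations correlated between -0.192 and 0.390, and differently numbered ones between -0.390 and 0.204. Wild-type saline had 2 libraries, so their deviations were opposite by construction, and -0.390 and 0.390 are the same value with its sign reversed. The highest value was that of both lens-bearing libraries. These values do not settle whether the numbers pair the animals. With a replicate block the counts were 20, 6, 0 and 13 for the 4 comparisons in the order above, and 0 for the interaction.

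Each comparison rests on 2 or 3 animals a group, and those with wild-type saline on 2 animals. Where a fit left out 1 of these, the lone library was assumed to vary like the other groups. The low isoforms rest on few counts. In the main fit the p-values measure only the spread between animals within groups, estimated over all 11 libraries and so also from groups not compared.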
